A study of Mus musculus with 9 samples.

Results

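The genes of the interferon regulatory factor family were followed here in ATAC-seq peak lists of mouse melanoma cells. ATAC-seq marks accessible chromatin by the insertion of a transposase, and each peak is a stretch where insertions pile up above the local background. The 8 genes were Irf1, Irf2, Irf3, Irf4, Irf5, Irf7, Irf8 and Irf9, and every deposited peak that overlapped one of them or lay within 20 kb of it was taken, whatever its strength. This gave 111 of the 137541 peaks in 9 libraries, which merged into 23 regions. The libraries came from tumours of B16, a mouse melanoma line, grown in mice, harvested on day 15 and sorted. B16_untreated was B16 with no treatment, B16_IFNg was B16 exposed to interferon gamma in a chronic treatment before injection, for 2 weeks in replicates 1 and 2 and for 3 weeks in replicate 3, and Res499 was the untreated strain 499, derived from B16 and resistant to checkpoint blockade. Each group had 3 libraries, all from cells taken out of tumours, and strain 499 stands as 1 derived line. Nothing in the labels says whether replicates were separate mice or pools, so the spread between them may be technical. The interferon was given before injection, so the libraries do not show the cells during the exposure.

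Interferon regulatory factors are transcription factors that share a DNA-binding domain and recognise GAAA repeats in interferon-stimulated response elements. Interferon gamma acts through its receptor and the kinases JAK1 and JAK2 on the gamma-activated site (GAS) of the Irf1 promoter, and IRF1 then raises antigen presentation genes. IRF9 is part of the complex that answers type I interferon, IRF3, IRF5 and IRF7 are switched on by phosphorylation downstream of nucleic acid sensors, IRF2 is best known as a counterpart of IRF1 at shared sites, and IRF4 and IRF8 act mainly in blood cells, with IRF4 also working beside MITF in melanocytes.

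The 8 genes differed in how often their start was accessible, from every library to none. In the full lists a peak lay within 500 bp of an annotated start in 9 of 9 libraries for Irf1, 8 for Irf3, 7 for Irf2, 6 for Irf9, 3 for Irf7, 1 for Irf5 and 0 for Irf4 and Irf8. Among 17492 protein-coding genes with an annotated start, 28.4% had such a peak in all 9 libraries and 48% in none. The upstream sequences of Irf1, Irf2 and Irf8 show how the genes differ although all 3 carry a GAS match, and they are printed for that reason. They are the 250 bases before the annotated start in RefSeq GRCm38.p6, the build of the peak files, on the + strand, with motif matches in capitals: Irf1 is chr11:53769764-53770013, Irf2 is chr8:46739495-46739744 and Irf8 is chr8:120736108-120736357.
Irf1: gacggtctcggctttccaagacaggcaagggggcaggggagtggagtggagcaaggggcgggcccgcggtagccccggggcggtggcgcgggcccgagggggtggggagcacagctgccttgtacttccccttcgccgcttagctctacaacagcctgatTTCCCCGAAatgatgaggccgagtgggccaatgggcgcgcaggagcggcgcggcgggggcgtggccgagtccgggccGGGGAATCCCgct
Irf2: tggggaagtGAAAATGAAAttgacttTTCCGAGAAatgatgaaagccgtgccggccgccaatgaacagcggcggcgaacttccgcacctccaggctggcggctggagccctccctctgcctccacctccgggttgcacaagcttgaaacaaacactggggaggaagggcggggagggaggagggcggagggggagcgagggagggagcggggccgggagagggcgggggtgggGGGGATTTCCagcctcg
Irf8: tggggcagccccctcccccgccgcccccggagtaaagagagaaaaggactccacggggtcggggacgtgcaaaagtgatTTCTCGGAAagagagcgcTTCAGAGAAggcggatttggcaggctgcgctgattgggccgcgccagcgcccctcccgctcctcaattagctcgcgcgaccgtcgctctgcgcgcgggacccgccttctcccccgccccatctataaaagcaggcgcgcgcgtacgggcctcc
The motifs searched, on both strands, were the core of the interferon-stimulated response element (ISRE; GAAA, any 2 bases, GAAA), the GAS (TTCNNNGAA), the NF-kB site (by name), the AP-1 site (TGANTCA) and the E-box (CACGTG).
In Irf1 the capitals mark, in order, a GAS at 90 to 82 bases and an NF-kB match at 13 to 4 bases before the start. In Irf2 they mark an ISRE core at 241 to 232, a GAS at 224 to 216 and an NF-kB match at 17 to 8 bases, and in Irf8 they mark GAS matches at 171 to 163 and 153 to 145 bases. None of the searched motifs overlapped another in these windows, and the upstream windows of Irf3, Irf4, Irf5, Irf7 and Irf9 held none of them. Over all 21263 coding promoter windows of the same length, a GAS was found in 6.58%, an ISRE core in 2.96%, an NF-kB match in 7.91%, an AP-1 site in 6.13% and an E-box in 6.63%. A match describes the letters and does not show that a factor was bound.

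Irf1, on chromosome 11 (53770014 to 53778374, + strand), is the member best known for its induction by interferon gamma. Its start lay in a region of 886 bp (chr11:53769741-53770626) called in all 9 libraries, and the start peak of every library covered both the GAS and the NF-kB match. Fold enrichment over the local background at the summit, as the caller gave it, was 5.77, 11.0 and 6.90 in B16_untreated against 7.65, 5.98 and 4.30 in B16_IFNg and 5.95, 4.88 and 5.10 in Res499. The B16_untreated values reached highest, with a mean of 7.89 ± 2.75 (SD, n = 3) against 5.98 ± 1.68 (n = 3) and 5.31 ± 0.565 (n = 3), and the ranges of the groups overlapped. Fold depends on depth, so each peak was also ranked by its −log10 p within its own library, with rank 1 the strongest. The ranks were 6502, 5039 and 6974 in B16_untreated against 3636, 6674 and 8837 in B16_IFNg and 7071, 6652 and 6168 in Res499, with means of 6172 ± 1009, 6382 ± 2613 and 6630 ± 451.9 (SD, n = 3 each). The ranks of the groups overlapped, and B16_IFNg held both its strongest and its weakest rank.

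**Figure D1:**
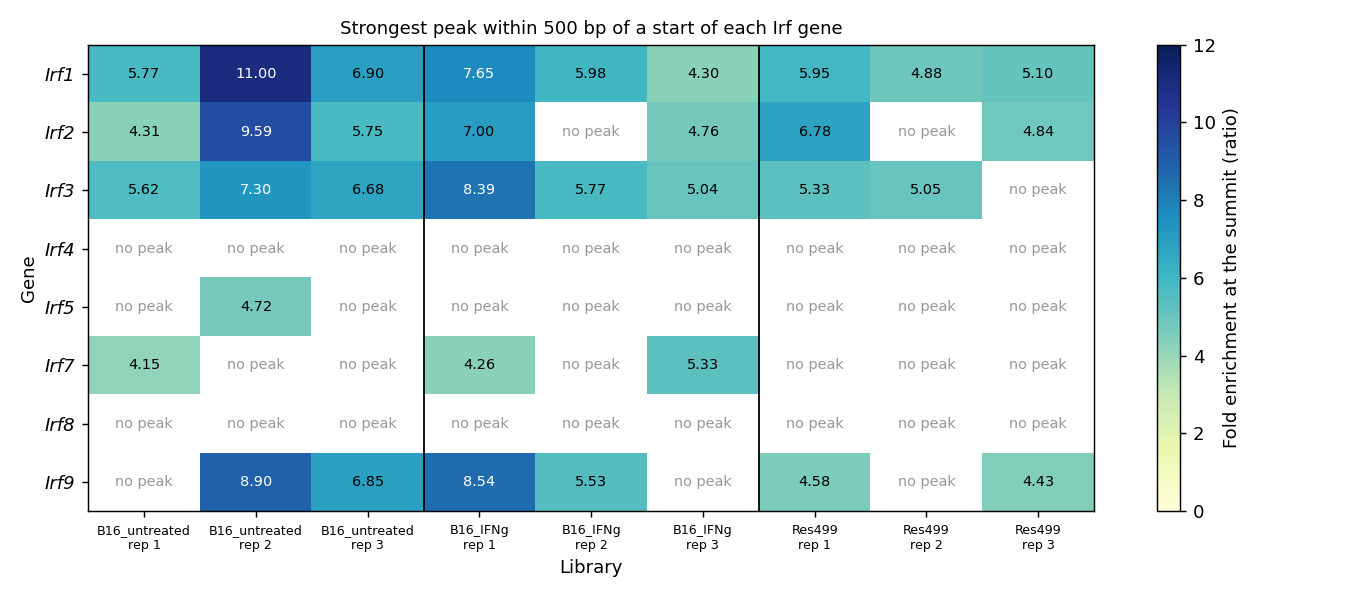
Fold enrichment (ratio, colour and number) of the strongest peak within 500 bp of a start, for the 8 Irf genes (rows) in the 9 libraries (columns, grouped by the vertical lines). Irf1 has a peak in every library, from 4.30 to 11.0, and Irf4 and Irf8 have none.

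The summit of the Irf1 peak lay between 103 bases upstream and 213 bases downstream of the start, and upstream of it in 7 of 9 libraries. The number of fragments over the summit, recovered from the deposited fold and −log10 p, was 29, 28 and 30 in B16_untreated against 24, 14 and 16 in B16_IFNg and 16, 13 and 21 in Res499. These counts are not scaled for depth, which the peak lists do not give. They are units of the caller's pileup, called fragments here. The caller's settings are not given, so whether a unit is a read pair or a single read is not known. The intervals below treat the units as independent counts. The median peak of a library held 16 to 25 fragments in B16_untreated, 12 to 17 in B16_IFNg and 15 to 21.5 in Res499. With 13 fragments the 95% Poisson interval ran from 6.92 to 22.2, and with 30 from 20.2 to 42.8, so counting error alone is wide at these peaks (intervals cover counting error only).

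**Figure D2:**
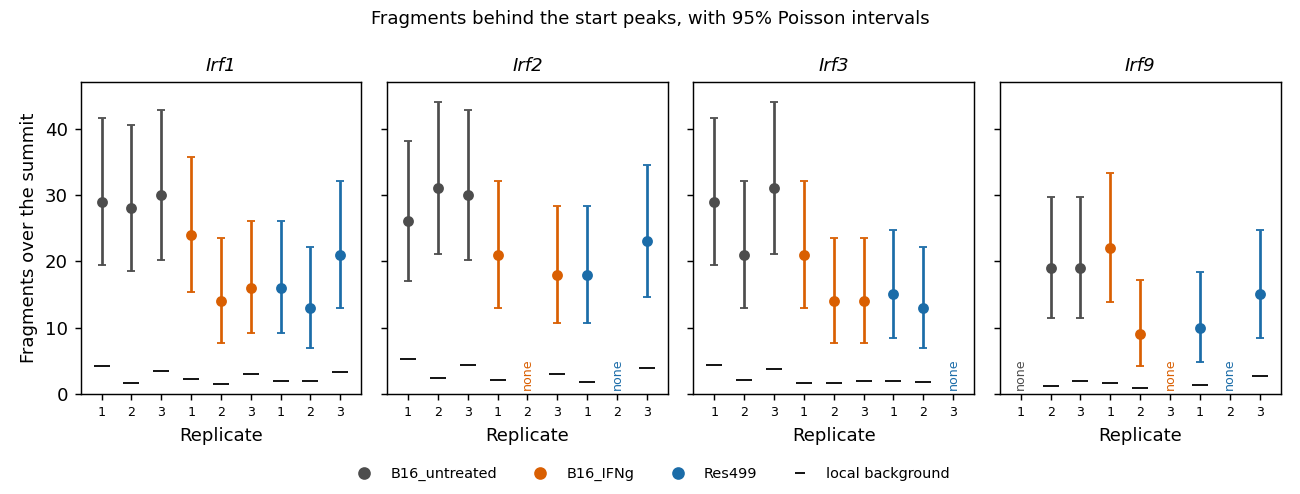
Fragments over the summit of the start peak (points) with 95% Poisson intervals (bars) and the local background (dashes) at Irf1, Irf2, Irf3 and Irf9 in each replicate, coloured by group; "none" marks a library without a peak. The Irf1 points run from 13 to 30 fragments, and all points stand above their local background.

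Beyond its start, Irf1 had 5 regions in its window. A region 6.4 kb upstream (chr11:53762947-53764278, at the microRNA gene Mir7671) was called in 8 of 9 libraries and had no peak in Res499 replicate 3, with folds of 3.79 to 6.57. Its best ranks were 9221, 11566 and 15829 in B16_untreated against 8133, 12646 and 8395 in B16_IFNg and 13658 and 8927 in Res499 replicates 1 and 2. A region 24.7 kb downstream of the nearest annotated start (53770473) was chr11:53794805-53795626. It had no gene end within 1 kb, genes with Gm symbols left out. It was found in all 3 B16_untreated libraries, at ranks 14257, 7210 and 7459, and in 1 library each of B16_IFNg (rank 11111) and Res499 (rank 10337). It was thus the Irf1 region present most often in B16_untreated relative to the other groups, but its rank in B16_untreated replicate 1 was lower than both of those. Further peaks there formed chr11:53795665-53796545 in 2 libraries and chr11:53796707-53797053 in 3, and a single B16_IFNg peak lay at chr11:53785577-53785875.

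Irf2, on chromosome 8 (46739745 to 46847458, + strand), had its start in chr8:46739342-46740206, called in 7 of 9 libraries. The folds were 4.31, 9.59 and 5.75 in B16_untreated, 7 and 4.76 in B16_IFNg replicates 1 and 3, and 6.78 and 4.84 in Res499 replicates 1 and 3. The 2 libraries with no peak were replicate 2 of B16_IFNg and of Res499, whose lists hold 13163 and 9214 peaks on the placed chromosomes against 9214 to 25362 in all libraries. Ranks were 10174, 5281 and 8733 in B16_untreated against 5173 and 7333 in B16_IFNg and 5109 and 6064 in Res499. With 2 libraries not listing the peak, the ranks give no order of the groups. Of the 7 start peaks, 7 covered the GAS and the NF-kB match and 6 covered the ISRE core. The exception, Res499 replicate 3, had a peak that began at 46739517.

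A further Irf2 region inside the gene, 1.4 kb past the start (chr8:46740575-46741721), was called in 3 B16_untreated, 1 B16_IFNg and 2 Res499 libraries. Its ranks were 10856, 11233 and 13496 in B16_untreated, 10338 in B16_IFNg replicate 1, and 8816 and 8850 in Res499 replicates 1 and 2, so each library that held it ranked it behind its own Irf2 start peak, except Res499 replicate 2, which had no start peak. Another region, 30.3 kb into the gene (chr8:46769944-46770174), had peaks only in B16_untreated replicates 2 and 3, the longest lists, at ranks 15934 and 16832 with 11 and 12 fragments. The annotation used gives no exons or introns, so positions inside a gene are not divided further.

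Irf9, on chromosome 14 (55603985 to 55610030, + strand), encodes the DNA-binding part of the type I interferon complex. Its first start lay in chr14:55603678-55604603, which is also within 1 kb of an end of Rnf31, a subunit of the linear ubiquitin ligase. The region was called in 2 of 3 libraries of each group, and the libraries without it were B16_untreated replicate 1, B16_IFNg replicate 3 and Res499 replicate 2. Folds were 8.90 and 6.85 in B16_untreated against 8.54 and 5.53 in B16_IFNg and 4.58 and 4.43 in Res499. The matching ranks were 8837 and 10481, 3297 and 9499, and 13002 and 9656. The Res499 folds were the lowest, and with 10 and 15 fragments at the summit against 19 and 19 in B16_untreated and 22 and 9 in B16_IFNg the counting intervals overlapped.

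The best rank in the Irf9 window was not at Irf9 but 12.6 kb upstream, where ends of Psme2, an interferon-inducible proteasome activator subunit, and Rnf31 lie together (chr14:55590876-55591829). In B16_IFNg replicate 1 the Irf9 start ranked ahead of it, at 3297 against 5805. It was called in all 9 libraries, with best ranks of 3247, 2645 and 675 in B16_untreated against 5805, 3685 and 1031 in B16_IFNg and 5319, 4332 and 5116 in Res499, and folds of 6.73, 11.5 and 10.8, of 6.98, 7.13 and 7.73, and of 6.37, 5.79 and 5.15 in the same order. All 3 Res499 libraries ranked it below all 3 B16_untreated libraries. Of the 4 window regions called in all 9 libraries when each list was cut to its 9214 strongest peaks, it was the only 1 with that pattern; 6.14% of the 4481 such regions genome-wide had it between these groups, 4.89% between B16_IFNg and B16_untreated and 5.51% between Res499 and B16_IFNg, where none of the 4 window regions did. The libraries were also split by a fragment class, which no label gives and which was inferred only from the shortest peak of each list. The class with a shortest peak under 150 bp held B16_untreated replicate 2 and replicates 1 and 2 of the other groups. Within that class the ranks were 2645 in B16_untreated against 5805 and 3685 in B16_IFNg and 5319 and 4332 in Res499, and in the other class they were 3247 and 675, 1031, and 5116. A weak region at the end of Emc9 (chr14:55585063-55585414) appeared in B16_untreated replicate 3 and Res499 replicate 1.

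Irf3, on chromosome 7 (44997648 to 45002848, + strand), encodes the factor activated by TBK1 after sensing of viral nucleic acid. Its start shares the region chr7:44997247-44998208 with an end of Bcl2l12, so the accessibility cannot be assigned to either gene. It was called in 8 of 9 libraries, with no peak in Res499 replicate 3. Folds were 5.62, 7.30 and 6.68 in B16_untreated against 8.39, 5.77 and 5.04 in B16_IFNg and 5.33 and 5.05 in Res499, and ranks were 6751, 10097 and 7000, then 3709, 7001 and 7985, then 8666 and 6378. As at Irf1, the strongest rank was that of B16_IFNg replicate 1 and the groups overlapped.

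The Irf3 window is gene-dense, and 35 of the 111 peaks fell in it. The region at an end of Prmt1, an arginine methyltransferase (chr7:44986035-44987145), was called in all 9 libraries at best ranks of 832, 1650 and 1749 in B16_untreated against 2859, 1851 and 1366 in B16_IFNg and 3230, 3419 and 1622 in Res499. The region between Rras, a small GTPase, and Scaf1 (chr7:45017249-45018073) was also called in all 9, at 1164, 5200 and 3343, at 3456, 4825 and 1527, and at 6593, 2930 and 4538. The neighbouring Scaf1 region (chr7:45015957-45016507) had no peak in replicate 3 of B16_IFNg and Res499, and ranked 10569, 9228 and 12629 in B16_untreated against 7036 and 7733 in B16_IFNg and 6696 and 4808 in Res499. Since 2 of these libraries did not list it, the ranks give no order of the groups, and the folds overlapped, at 3.29 to 5.99 in B16_untreated against 5.06 and 5.40 in B16_IFNg and 4.79 and 4.83 in Res499. Prmt1, Rras and Scaf1 regions are peaks of neighbours rather than of Irf3.

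**Figure D3:**
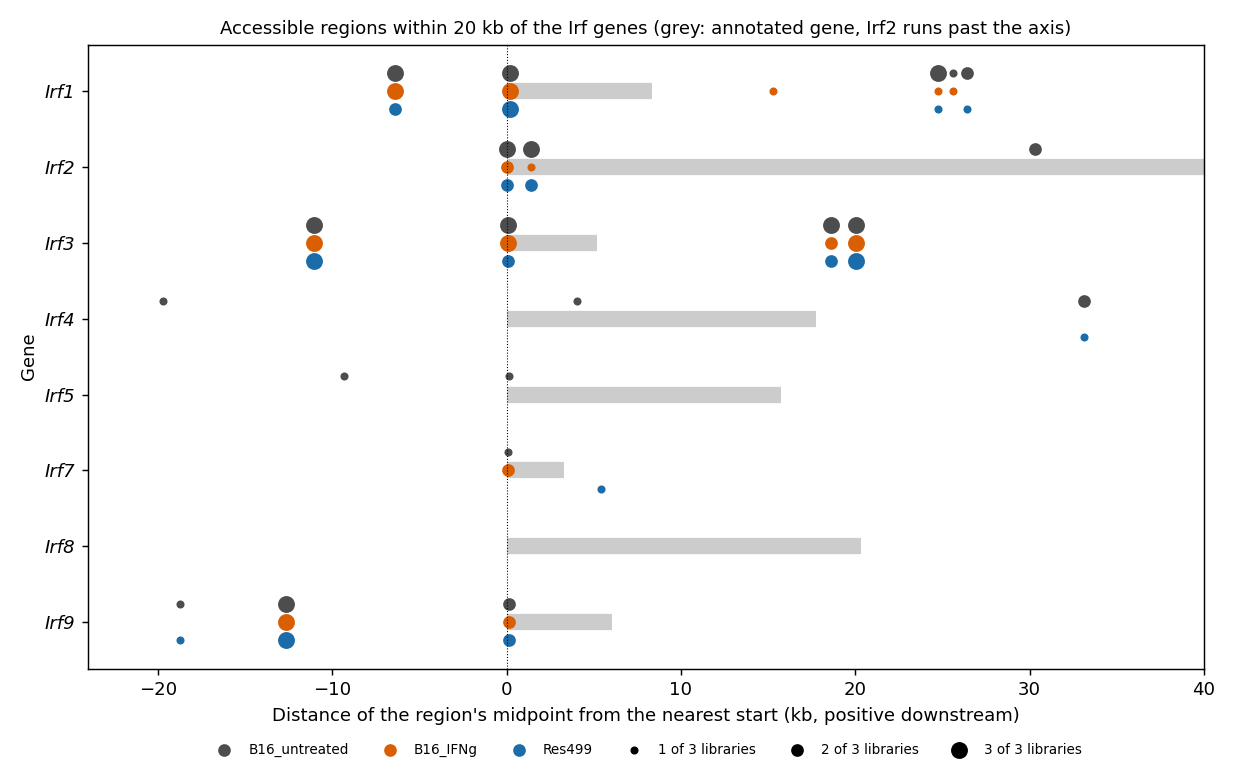
Regions in the windows of the 8 Irf genes by distance of their midpoint from the nearest start (kb, positive downstream), with grey bars for the annotated genes. Dots are stacked by group and grow with the number of libraries of the group that hold the region (1 to 3); the Irf8 row is empty, and Irf1, Irf3 and Irf9 hold the regions found in all 9 libraries.

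Irf7, Irf5, Irf4 and Irf8 had few peaks or none. Irf7, the interferon-inducible amplifier of type I interferon on chromosome 7 (141263183 to 141266499, - strand), had start peaks in B16_untreated replicate 1 (fold 4.15, rank 14135, 13 fragments), B16_IFNg replicate 1 (fold 4.26, rank 15620, 8 fragments) and B16_IFNg replicate 3 (fold 5.33, rank 7606, 14 fragments). No Res499 library had one, and 1 Res499 peak lay 5.4 kb past the start at chr7:141260892-141261080. Irf5, on chromosome 6 (29526130 to 29541869, + strand), had peaks in B16_untreated replicate 2 alone, 1 at the start (chr6:29526702-29526826, fold 4.72, rank 19729, 13 fragments) and 1 at chr6:29517254-29517390 (fold 7.23, rank 12503). That library has the longest list, with 25362 peaks.

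Irf4, on chromosome 13 (30749233 to 30766981, + strand), had no peak at its start. It had 5 peaks in 3 regions: chr13:30729464-30729584 in B16_untreated replicate 2, chr13:30753195-30753388 inside the gene in B16_untreated replicate 3, and chr13:30782011-30782642 in B16_untreated replicates 1 and 3 and Res499 replicate 1. All ranked at 13984 or weaker, with 8 to 14 fragments. Irf8, on chromosome 8 (120736358 to 120756694, + strand), had no peak within 20 kb in any library, although its first upstream window carries the 2 GAS matches printed above. A missing peak says only that no stretch passed the caller's threshold at that library's depth.

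**Figure D4:**
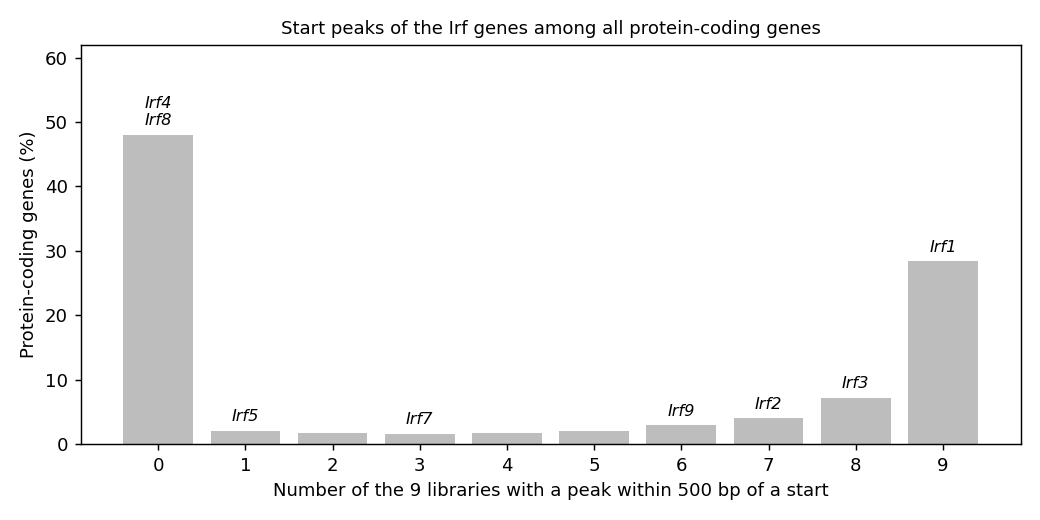
Share of protein-coding genes (%, bars) by the number of the 9 libraries with a peak within 500 bp of a start, with the Irf genes named above their bar. Coding genes sit mostly at 0 (48%) and 9 (28.4%), and Irf2, Irf3, Irf5, Irf7 and Irf9 sit between.

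Base composition of the start was a property that the choice of genes did not use. A window was called CpG-rich when its GC content was above 50% and its observed over expected CpG ratio above 0.6. Of 7739 coding genes with a CpG-rich start 53.2% had a start peak in all 9 libraries and 14.8% in none, and of the other 9753 genes 8.66% and 74.4%. The accessible Irf1 (first start: 71.2% GC, CpG ratio 0.823), Irf2 (65.2%, 0.693) and Irf3 (58.8%, 0.766) were CpG-rich. Irf8 (first start: 67.2%, 1.03) and Irf5 (72%, 0.804) were CpG-rich as well, with 0 and 1 libraries holding a start peak. Irf9 (first start: 54.4%, 0.381) was not CpG-rich and had a start peak in 6 libraries, while Irf4 (63.6%, 0.437) and Irf7 (54.4%, 0.163) were not and had 0 and 3.

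The number of peaks near the family followed the length of the lists. The windows held 13, 18 and 16 peaks in B16_untreated against 15, 10 and 9 in B16_IFNg and 15, 8 and 7 in Res499, which is 15.7 ± 2.52, 11.3 ± 3.21 and 10 ± 4.36 (SD, n = 3 each). Per 1000 peaks of the list this was 0.79 ± 0.0774, 0.83 ± 0.085 and 0.813 ± 0.196, differences smaller than the spread between replicates. For comparisons each list was therefore shortened to its 9214 strongest peaks, the length of the shortest list. In these equal-length lists the windows held 5, 7 and 7 peaks in B16_untreated against 9, 6 and 8 in B16_IFNg and 8, 8 and 6 in Res499, in 13 regions.

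No region near an Irf gene was gained or lost in any of the 4 comparisons. A region counted as gained or lost when it was called in every library of one side and in none of the other. After interferon gamma exposure, against B16_untreated, 0 of 11 window regions changed, while 0.398% of the 14068 regions tested genome-wide were gained and 0.611% lost. In Res499 against B16_untreated it was 0 of 12, with 0.596% of 14425 gained and 0.984% lost, and in Res499 against B16_IFNg 0 of 12, with 0.399% of 14554 gained and 0.557% lost. For both groups pooled against B16_untreated it was 0 of 13, with 0.0447% of 15668 gained and 0.204% lost. With shares this low genome-wide, a count of 0 among so few regions is near the background and is no result about the family. The comparisons share groups and are not independent of each other.

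**Figure D5:**
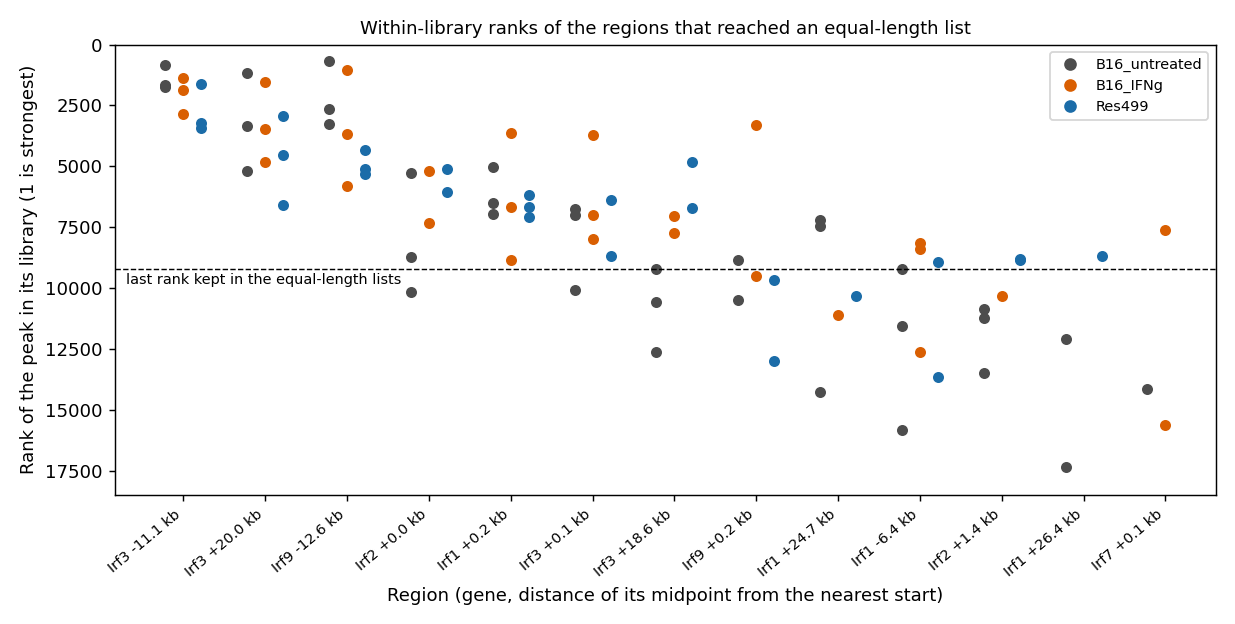
Rank of the best peak in each library (1 is strongest, axis reversed) for the 13 regions that reached an equal-length list, coloured by group and named by gene and distance; the dashed line is the last rank kept, 9214. Regions right of the middle straddle the line, and the B16_untreated points of the Scaf1 region (Irf3 +18.6 kb) all fall below it, the nearest at 9228.

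Several regions stood close to the end of the equal-length lists, where presence turns on a few ranks. The Scaf1 region was in the equal-length lists of 2 B16_IFNg, 2 Res499 and 0 B16_untreated libraries, but its B16_untreated replicate 2 peak, at rank 9228, missed the list narrowly. The region upstream of Irf1 was in 2 B16_IFNg, 1 Res499 and 0 B16_untreated lists, with B16_untreated replicate 1 at rank 9221. The downstream Irf1 region was in 2 B16_untreated lists and no other, and the inner Irf2 region was in 2 Res499 lists and no other.

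Ranks could be tested for the 4 window regions called in all 9 equal-length lists: the Irf1 start, the Prmt1 end, the Rras and Scaf1 region and the Psme2 and Rnf31 region. Ranks were turned into normal scores, on which 1 unit is 1 SD of all ranks and a higher score is a stronger peak, and fitted with limma over all 4481 such regions, with Benjamini-Hochberg adjustment over all of them. None of the 4 passed an adjusted p of 0.05 in any comparison, nor an unadjusted one in this fit. Genome-wide, 0% passed in each of the 3 comparisons between single groups and 0.0223% (1 region) in the pooled comparison, and an unadjusted p under 0.05 was reached by 184, 288 and 260 regions and by 229 in the pooled comparison.

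At the Irf1 start the limma difference in score, with its 95% interval, was -0.24 (-1.20 to 0.73, adjusted p = 0.998) for B16_IFNg minus B16_untreated, -0.13 (-1.10 to 0.83, adjusted p = 0.981) for Res499 minus B16_untreated and 0.10 (-0.86 to 1.07, adjusted p = 0.994) for Res499 minus B16_IFNg. Each interval spans about 1 SD of the list on either side, so differences of that size at the Irf1 start were not detectable with 3 libraries a group. Single libraries turned the sign: B16_IFNg minus B16_untreated was -0.72 without B16_IFNg replicate 1 and 0.29 without B16_IFNg replicate 3, and Res499 minus B16_IFNg was 0.58 and -0.42. Res499 minus B16_untreated was 0.03 without B16_untreated replicate 2. The furthest from 0 was the Psme2 and Rnf31 region in Res499 against B16_untreated, at -0.88 (SE 0.44, interval -1.82 to 0.05, adjusted p = 0.785 by limma), lower in 3 of 3 Res499 libraries. With the inferred fragment class as a covariate it was -0.71 (adjusted p = 0.914 by limma), and without B16_untreated replicate 3 it was -0.56. Its value against B16_IFNg was -0.47 (-1.40 to 0.47, adjusted p = 0.918), and for B16_IFNg against B16_untreated it was -0.42 (-1.35 to 0.52, adjusted p = 0.998). Without B16_IFNg replicate 3 these became -0.05 and -0.84, and without B16_IFNg replicate 1 they became -0.82 and -0.06. The latter was -0.09 without B16_untreated replicate 3 and -0.63 without B16_untreated replicate 1. B16_IFNg replicate 3 was the only library of its group exposed for 3 weeks and the only member of its group in its inferred fragment class. Leaving it out therefore cannot separate exposure time, fragment class and replicate. The Prmt1 and the Rras and Scaf1 regions had differences of -0.50 and -0.47 in Res499 against B16_untreated (adjusted p = 0.865 and 0.915 by limma).

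Of the 4481 regions called in all 9 equal-length lists, those within 1 kb of a coding gene end were compared with the Irf1 start. Those at an end of Krcc1 (Pearson r = 0.942 over 9 libraries), of Abhd13 and Lig4 (0.911) and of Lmntd2 and Rassf7 (0.91) had scores that moved most like those of the Irf1 start. These are the 3 highest among such regions, chosen for that, and 9 points that share library and depth describe the pattern only.

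The genes around the family were accessible to different degrees, counted here as a peak within 500 bp of either annotated end of the gene. Of all 21887 coding genes, 24.7% had such a peak in all 9 libraries and 51.9% in none. Of 8 receptor and JAK-STAT genes, 5 had one in all 9 libraries (Ifnar1, Jak1, Jak2, Tyk2 and Stat2), and Ifngr1 had one in 8 and Ifngr2 and Ifnar2 in 7. Of 13 genes that activate IRF3, IRF5 and IRF7, 5 had one in all 9 (Mavs, Tbk1, Ticam1, Irak4 and Traf6), whereas the sensors Mb21d1 and Ddx58 and the adaptor Myd88 had one in a single library and Tmem173, which encodes STING, in 2. Of 6 binding partners, Irf2bp2 and Irf2bpl had one in all 9, Irf2bp1 in 8 and the lymphoid and myeloid partners Spi1, Batf and Batf3 in 4, 2 and 0. None of these genes had a gained or lost region within 20 kb. Among 21887 coding genes the shares with a gained and a lost region were 0.471% and 0.498% for B16_IFNg against B16_untreated, 0.69% and 0.873% for Res499 against B16_untreated, 0.407% and 0.603% for Res499 against B16_IFNg and 0.0457% and 0.174% for the pooled comparison, so these counts of 0 are also near the background.

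The same count was made for markers of the cells in the sort. Of 10 melanocyte markers, 4 had an end peak in all 9 libraries (Mitf, Pmel, Dct and Gpnmb), Ednrb had none, and 6 to 8 were found per B16_untreated library, 5 to 6 per B16_IFNg and 5 to 7 per Res499 library. Sox10 and Mlana each had one in a single library. Kit had one in 1 B16_untreated, 0 B16_IFNg and 3 Res499 libraries, Tyr in 3, 3 and 1, and Tyrp1 in 3, 2 and 1. These counts are from full lists of unequal length, so they give no order of the groups. In the equal-length lists Kit had an end peak in 1 library, Tyr in 3 and Tyrp1 in 5. The share of all coding genes with such patterns was not counted. Of 9 leukocyte markers 7 had none in any library, including Ptprc, Cd3e and Itgam, and 0 to 2 were found per B16_untreated library and 0 to 1 per library of the other groups. The exceptions were Spi1, in 4 libraries, and Coro1a, in 1. Of 8 fibroblast and endothelial markers 7 had none, and Pdgfrb had a peak in 1 B16_untreated library. In bulk samples, a smaller share of cells with an open site and less opening per cell cannot be told apart.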

How the data were processed

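Per the submitters' processing notes, reads were handled with CASAVA, cutadapt 1.9, Bowtie2 2.2.4 and MACS2 on GRCm38 (mm10). The MACS2 settings and any read shift for the transposase are not given in the sources used here. The authors deposited 1 peak list per library, called without pooling, with a score, a fold enrichment (ratio) over the local background, −log10 p and −log10 q per peak. From fold and −log10 p the whole number of summit fragments and the background were recovered for all 111 peaks near the family within 0.01. Peaks off chromosomes 1 to 19, X and Y (2 to 12 per library) were left out, leaving 9214 to 25362 per library. Touching peaks were merged into regions in Python 3.11.15, and 1 base of overlap placed a library in a region. Ranks were tested with limma 3.58.1 in R 4.3.3. For the pooled comparison, normal scores were simulated over 4481 regions, with independent noise of the same SD in every region. In this simulation limma recovered 17% of shifts of 1 score and 94% of shifts of 2, and called 3 unchanged regions. Unequal spreads between regions and the comparisons between single groups were not simulated. Genes come from RefSeq GRCm38.p6. Genes with symbols that begin with Gm were left out when gene ends within 1 kb of a window region were named. The members and lists were chosen with earlier results of these data known. Beside the members, genes were named when an end lay within 1 kb of a window region, when they belonged to a list with a changed region, or as the 3 most like the Irf1 start; list genes beyond that were named after their values were seen. Alternatives changed list length, ranking, overlap, merging, window, call rule, fragment class, replicate block and the libraries kept. Some genes of the lists are not reported here.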

Additional observations from a re-analysis of the deposited data

How the results depend on the processing

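The counts of gained and lost regions near the Irf genes were 0 with all deposited peaks, half-length lists, ranking by fold, 50% overlap, merging up to 250 bp and a 10 kb window. When 1 missing or 1 extra library was allowed, gained regions numbered 2 for B16_IFNg against B16_untreated, 2 for Res499 against B16_untreated and 1 for Res499 against B16_IFNg, and lost regions 1 in each of the first 2 and 1 in the pooled comparison. Genome-wide that rule called 4.57% of regions gained and 5.37% lost in B16_IFNg against B16_untreated, 5.18% and 6.86% in Res499 against B16_untreated, 4.38% and 5.24% in Res499 against B16_IFNg and 0.9% and 1.71% in the pooled comparison. Leaving out 1 library gave 0 to 1 gained for B16_IFNg against B16_untreated (1 without B16_IFNg replicate 2 or 3), 0 to 2 for Res499 against B16_untreated and 0 to 1 for Res499 against B16_IFNg (2 and 1 without Res499 replicate 3), and 0 to 1 lost in each comparison with B16_untreated (1 without B16_untreated replicate 1). Genome-wide, gained regions for B16_IFNg against B16_untreated numbered 154 and 191 without B16_IFNg replicate 2 or 3, against 56 with all libraries, and without Res499 replicate 3 they numbered 238 against B16_untreated and 176 against B16_IFNg, in place of 86 and 58. Without B16_untreated replicate 1, lost regions numbered 281, 412 and 137 in B16_IFNg, Res499 and both pooled, in place of 86, 142 and 32. Leaving out a library of a compared side removes a condition of the rule, which is then easier to meet. Any further cause was not tested. The number of window regions past the limma threshold was 0 under all alternatives, 1 of which, the replicate block, fitted the replicate number as a term and also gave 0 in each comparison. Same-numbered libraries of different groups correlated at -0.0285 to 0.0899 in their deviations, and different-numbered ones at -0.0893 to 0.0637. These ranges overlapped, and whether the numbers pair the samples was not tested. For the Psme2 and Rnf31 region in Res499 against B16_untreated, the adjusted p ranged from 0.265 to 0.998 by limma. Its unadjusted p was 0.0107 with all deposited peaks, 0.0449 with the replicate block, and 0.0422 and 0.0416 without B16_untreated replicate 1 or B16_IFNg replicate 3; pooled, it was 0.0248 with all deposited peaks and 0.0297 without B16_IFNg replicate 3. With all deposited peaks the Prmt1 and the Rras and Scaf1 regions had unadjusted p of 0.0457 and 0.0475 by limma in Res499 against B16_untreated. With these lists of unequal length, 14% of 6166 regions genome-wide fell under 0.05 in that comparison and 12.1% pooled. The median differences over all regions were -0.39 and -0.34. In Res499 against B16_untreated the share was 6.9% with the replicate block. It was 7.73% and 6.48% without B16_untreated replicate 1 or B16_IFNg replicate 3, and pooled 5.81% without B16_IFNg replicate 3. The Irf1 start difference for B16_IFNg against B16_untreated was 0.03 on log2 ranks, and for Res499 against B16_IFNg it was -0.15 on log2 ranks and -0.16 with all deposited peaks. Mean peaks per library in B16_untreated, B16_IFNg and Res499 became 6.33, 7.67 and 7.33 with equal-length lists, 8, 6.33 and 5 with a 10 kb window and 6.67, 4.67 and 3.33 in gene bodies only, and ranged from 14.5 to 17, 9.5 to 12.5 and 7.5 to 11.5 when 1 library was left out. Fragments at the median peak ran from 12 to 25 between libraries, with 16 in B16_untreated replicate 2, which has the longest list. Read depth itself is not in the peak lists.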
